A study of Mus musculus with 8 samples.

Results

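The 10 genes described here encode Wnt ligands, a family of secreted signalling proteins. They are Wnt2, Wnt2b, Wnt3, Wnt4, Wnt5a, Wnt5b, Wnt6, Wnt7a, Wnt7b and Wnt11, picked by gene name among 19 Wnt ligand genes in a table of 23165 named loci. The list was drawn up with the genotype difference of these libraries known, so the levels and fold changes of the 10 are a description and carry no p-value, and a call is given only as the outcome of the test over all loci. The names matched 11 loci, since Wnt5b has a second locus on the same coordinates that is listed at 0 in all 8 libraries and was left aside.

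Whole stomachs were taken from E13.5 mouse embryos. The YAP5SA group (4 libraries) carried Nkx3.2Cre and R26-YAP5SA, in which Cre recombinase driven by the Nkx3-2 gene, active in stomach mesenchyme, switches on an activated form of the transcriptional coactivator YAP placed at the Rosa26 locus. The other group (4 libraries) is labelled wild type. No group with Cre alone was analysed here, so effects of the Cre allele and of active YAP cannot be told apart, and the labels do not say whether a library came from a single embryo or a pool. Levels are given in CPM, which are fragments scaled to library size. Libraries held 7152526 to 8353242 fragments at named loci in YAP5SA and 6204932 to 6783555 in wild type. Barx1, a marker of stomach mesenchyme, was at 158 ± 14.2 CPM in YAP5SA and 171 ± 7.63 CPM in wild type (SD, n = 4 each). Of 10 mesenchyme markers 3 fell, among them Foxf1a, a forkhead factor gene, at 87.5 ± 11.7 CPM in YAP5SA and 146 ± 4.89 CPM in wild type. The share of all loci that fell is given with the marker lists below. Yap1 was at 223 ± 13.4 CPM in YAP5SA and 232 ± 7.45 CPM in wild type, which does not measure the transgene because the assignment of its fragments is not given.

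A Wnt protein is lipid-modified by Porcupine, carried to the cell surface by Wntless and bound by Frizzled receptors on the receiving cell. In the canonical arm, Frizzled acts with an LRP coreceptor, beta-catenin is stabilised and TCF/LEF factors switch on target genes such as Axin2. In the noncanonical arms, receptors such as Ror2 and Ryk steer planar cell polarity, calcium signals and cell movement. Ligands were put into classes from textbook usage: Wnt2, Wnt2b, Wnt3, Wnt6, Wnt7a and Wnt7b as canonical, and Wnt4, Wnt5a, Wnt5b and Wnt11 as noncanonical. Wnt4, Wnt7a and Wnt11 have been described in either arm. In the embryonic gut, mesenchyme and epithelium both make Wnt ligands.

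In YAP5SA stomachs, 7 of the 10 ligands were past the threshold (edgeR quasi-likelihood test, Benjamini-Hochberg adjusted p under 0.05 over 14574 loci), all higher, and 0 were lower. Over all loci tested, 18.9% were past it, 9.06% higher and 9.85% lower. The 7 were Wnt7a, Wnt6, Wnt3, Wnt11, Wnt7b, Wnt4 and Wnt5a, and in each of them every YAP5SA library lay above every wild type library. Such separation held for 23.3% of all loci, upwards for 10.9% and downwards for 12.4%. Wnt2, Wnt2b and Wnt5b were not past the threshold, and their genotypes overlapped. The median log2 fold change of the 10 was 1.10, against −0.01 over all loci. Wnt7a and Wnt3 met the filter on low counts only through their YAP5SA libraries. In RNA of whole organs, more cells of a kind and more RNA per cell cannot be told apart.

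**Figure D1:**
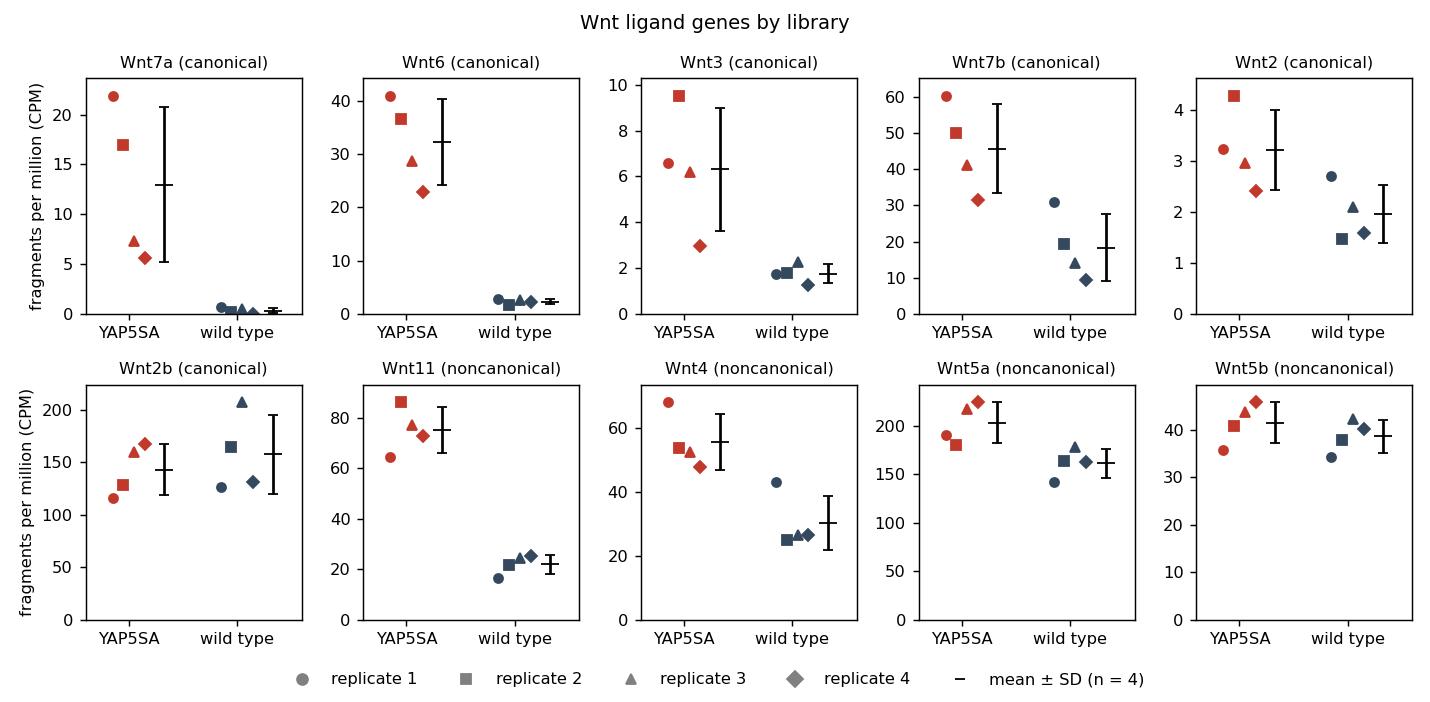
CPM of the 10 ligand genes in each library, canonical ligands from Wnt7a to Wnt2b and then noncanonical ligands, with YAP5SA left of wild type; symbols mark replicate numbers and the bars are mean ± SD of 4 libraries. The genotypes are apart for Wnt7a, Wnt6, Wnt3, Wnt7b, Wnt11, Wnt4 and Wnt5a, and overlap for Wnt2, Wnt2b and Wnt5b.

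The sequences upstream of Wnt7a, Wnt6 and Wnt11 are shown because these are the largest rise, the next largest rise, and the noncanonical ligand with the largest rise. Each run is the 250 bases before a RefSeq transcription start on GRCm38.p6, 5′ to 3′ on the gene's own strand. Capitals mark a match to the TCF/LEF core CTTTGA on either strand.
Wnt7a, chr6:91411354-91411603, minus strand: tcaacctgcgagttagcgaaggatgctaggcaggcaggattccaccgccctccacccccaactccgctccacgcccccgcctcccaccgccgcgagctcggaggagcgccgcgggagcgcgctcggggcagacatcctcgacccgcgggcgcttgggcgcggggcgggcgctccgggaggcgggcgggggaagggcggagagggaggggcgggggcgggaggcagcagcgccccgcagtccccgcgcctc
Wnt6, chr1:74771642-74771891, plus strand: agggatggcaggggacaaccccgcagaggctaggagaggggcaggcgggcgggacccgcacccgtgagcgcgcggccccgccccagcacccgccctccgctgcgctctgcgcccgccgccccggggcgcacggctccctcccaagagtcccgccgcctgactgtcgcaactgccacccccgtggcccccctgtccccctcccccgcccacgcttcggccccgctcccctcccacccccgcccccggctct
Wnt11, chr7:98834862-98835111, plus strand: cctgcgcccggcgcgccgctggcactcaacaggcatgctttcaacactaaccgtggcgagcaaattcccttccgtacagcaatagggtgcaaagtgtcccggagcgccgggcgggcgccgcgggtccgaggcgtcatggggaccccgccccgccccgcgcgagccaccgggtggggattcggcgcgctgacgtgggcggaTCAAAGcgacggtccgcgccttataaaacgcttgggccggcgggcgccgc
RefSeq windows of 300 bases, 250 before and 50 after a start, were given for 8 of the 10 ligands (11 windows). The core of the TEAD motif, GGAATG on either strand, through which YAP acts with its DNA-binding partners, was found in 1 of these 11, the middle of the Wnt5b windows, and in 14.7% of 32851 windows of all genes. The core CTTTGA was found in 2 of the 11 and in 16% of all windows. The 2 were the Wnt11 window shown (50 bases before its start) and another Wnt5b window. A further Wnt11 window, chr7:98838595-98838894, held neither core and is not shown. The ligands' windows are 53.0% to 84.3% G and C, against a median of 52.7% over all windows. A match is a run of letters and not a shown binding site, and a window without a match says nothing of more distant elements.

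Among canonical ligands, Wnt7a (chr6:91363982-91411369, mm10), which patterns the dorsal limb and the female tract in mice, had the largest fold change. It was at 21.9, 17.0, 7.27 and 5.63 CPM in YAP5SA replicates 1 to 4, against 0.635, 0.147, 0.449 and 0 CPM in wild type. In fragments these were 183, 123, 54 and 42 in YAP5SA and 4, 1, 3 and 0 in wild type. Wild type stomachs were thus near the detection limit for Wnt7a, while the YAP5SA libraries spread over 3.89-fold, with replicates 1 and 2 above 3 and 4. Its log2 fold change was 5.33 ± 0.68 (SE), and the ratio of mean CPM was 42.1. With 8 wild type fragments in all this size is loosely set. With each of the 8 libraries left out in turn, an alternative added after seeing the data, the ratio ran from 31.55 to 65.1. It was highest without wild type replicate 1. On log2 FPKM with a pseudocount of 1 the log2 fold change was 2.13.

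Wnt6 (chr1:74771891-74785506), a ligand of surface ectoderm and of kidney duct epithelium, stood at 41.0, 36.7, 28.8 and 22.9 CPM in YAP5SA, against 2.70, 1.61, 2.54 and 2.21 CPM in wild type. Even the lowest YAP5SA library was far above the highest wild type library. On the log2 scale the difference was 3.83 ± 0.24, a ratio of mean CPM of 14.3. Wnt6 lies 6.51 kb from the canonical ligand gene Wnt10a. Wnt10a was at 2.28 ± 1.17 CPM in YAP5SA and 1.66 ± 0.81 CPM in wild type and was not past the threshold (log2 fold change 0.47 ± 0.44).

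Wnt3 (chr11:103774174-103818021), needed for gastrulation in mice and made by Paneth cells of the adult gut, had 6.58, 9.52, 6.20 and 2.95 CPM in YAP5SA, against 1.75, 1.76, 2.25 and 1.26 CPM in wild type. The groups did not overlap, but YAP5SA replicate 4 came close to the wild type range, and wild type held only 46 fragments in all. On the log2 scale Wnt3 was higher by 1.83 ± 0.37. Wnt9b, 24.4 kb away on chromosome 11, had 13 fragments over the 4 YAP5SA libraries and 9 over the 4 wild type libraries and was not tested.

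Wnt7b (chr15:85535436-85593708), a canonical ligand of embryonic lung epithelium, was measured at 60.4, 50.2, 41.1 and 31.5 CPM in YAP5SA, against 30.9, 19.2, 13.9 and 9.30 CPM in wild type. YAP5SA replicate 4 and wild type replicate 1 nearly met. Its log2 fold change was 1.32 ± 0.31. Within the pair of close relatives, Wnt7a made up 21.3 ± 6.45% of their summed FPKM in YAP5SA and 1.65 ± 1.55% in wild type (SD, n = 4 each), where FPKM is scaled to transcript length as well as to library size.

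Wnt2 and Wnt2b, which together specify the lung from the foregut in mice, differed in level. Wnt2 (chr6:17988939-18030445) was scarce, at 3.23, 4.28, 2.96 and 2.41 CPM in YAP5SA and 2.70, 1.47, 2.10 and 1.58 CPM in wild type (log2 fold change 0.71 ± 0.30). Wnt2b (chr3:104939159-104961740) was abundant, at 117, 128, 160 and 167 CPM in YAP5SA and 127, 164, 208 and 132 CPM in wild type (log2 fold change −0.14 ± 0.16). For both genes the genotypes overlapped. The direction of Wnt2b turned to 0.03 without wild type replicate 3, its highest wild type library, and to 0.01 on deposited FPKM.

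Among noncanonical ligands, Wnt11 (chr7:98835003-98854747), which guides kidney branching and cell movement at gastrulation, was the furthest apart. It was at 64.5, 86.2, 77.2 and 72.6 CPM in YAP5SA, against 16.5, 21.6, 24.6 and 25.1 CPM in wild type. Every YAP5SA library was above the wild type range by a wide margin and the libraries of each genotype lay close together. The log2 fold change was 1.77 ± 0.13, with the smallest SE among ligands that differed more than 2-fold.

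Wnt4 (chr4:137277634-137299501), known for kidney tubule formation and ovary development, was at 68.1, 53.7, 52.4 and 47.8 CPM in YAP5SA, against 43.0, 24.8, 26.6 and 26.5 CPM in wild type. Wild type replicate 1 stood apart from the other wild type libraries and just below the YAP5SA range. On the log2 scale Wnt4 was higher by 0.88 ± 0.17.

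Wnt5a (chr14:28504572-28527445), a ligand of planar polarity and of gut elongation, was the most abundant ligand in each genotype. It was at 191, 180, 218 and 225 CPM in YAP5SA, against 142, 164, 178 and 163 CPM in wild type. The groups were apart by little, YAP5SA replicate 2 lying just above wild type replicate 3. The log2 fold change was 0.33 ± 0.09, and without YAP5SA replicate 3 it was 0.30 and no longer past the threshold. Its relative Wnt5b (chr6:119432530-119544347), known from cartilage growth, was at 35.6, 40.8, 43.6 and 45.8 CPM in YAP5SA and 34.3, 37.7, 42.2 and 40.2 CPM in wild type (log2 fold change 0.10 ± 0.10). Wnt5a made up 65.7 ± 1.84% of the summed FPKM of the pair in YAP5SA and 62.8 ± 0.89% in wild type.

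**Figure D2:**
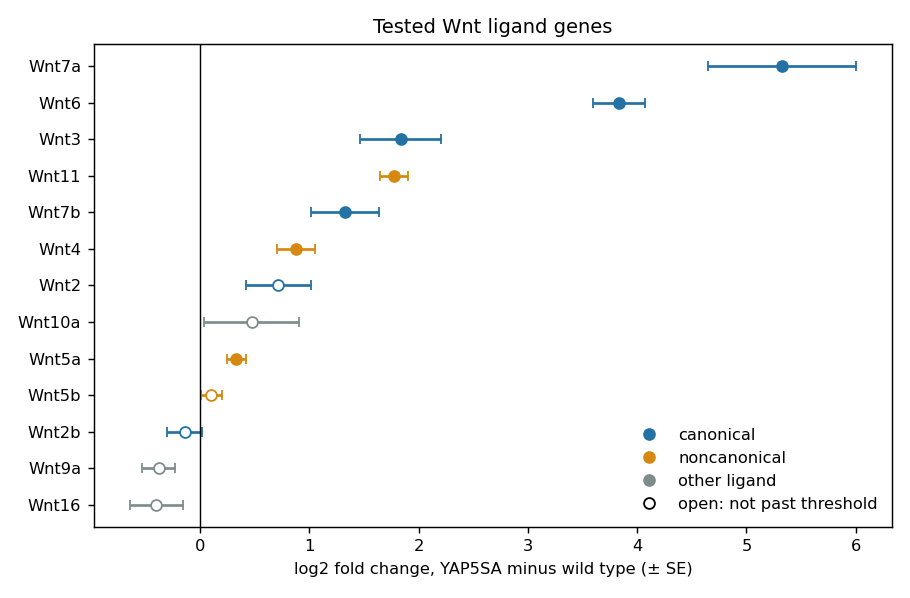
Log2 fold change (YAP5SA minus wild type, ± SE) of the 13 Wnt ligand genes with enough fragments to test, coloured by class; filled points are past the threshold. Wnt7a and Wnt6 stand far to the right at 5.33 and 3.83, and no ligand past the threshold lies left of 0.

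The 9 Wnt ligand genes left out of the list showed no call in either direction. Wnt9a, Wnt10a and Wnt16 were tested. Wnt9a was at 20.6 ± 3.12 CPM in YAP5SA and 26.8 ± 4.97 CPM in wild type (log2 fold change −0.38 ± 0.15). Wnt16 was at 4.25 ± 0.98 CPM in YAP5SA and 5.62 ± 0.92 CPM in wild type (−0.40 ± 0.24). The other 6, Wnt1, Wnt3a, Wnt8a, Wnt8b, Wnt9b and Wnt10b, had 1 to 13 fragments over the YAP5SA libraries and 0 to 13 over the wild type libraries. Of the 13 family genes tested, 7 were higher and 6 were not past the threshold.

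On the FPKM scale, levels of different ligands can be set beside each other. In YAP5SA the order of mean FPKM was Wnt5a (36.2), Wnt11 (27.02), Wnt2b (22.1), Wnt5b (18.9), Wnt6 (17.2), Wnt4 (15.1), Wnt7b (14.6), Wnt7a (4.31), Wnt3 (2.14) and Wnt2 (1.66). In wild type it was Wnt5a (29.4), Wnt2b (22.0), Wnt5b (17.4), Wnt4 (8.17), Wnt11 (7.95), Wnt7b (5.74), Wnt6 (1.19), Wnt2 (1.00), Wnt3 (0.589) and Wnt7a (0.107). In YAP5SA only the steps from Wnt5a to Wnt11 and from Wnt7b to Wnt7a separated neighbours whose libraries did not overlap. In wild type such steps lay between Wnt5b and Wnt4, Wnt7b and Wnt6, and Wnt3 and Wnt7a. Among all 19 ligand genes Wnt11 ranked 2 in YAP5SA and 6 in wild type, and Wnt6 ranked 5 in YAP5SA and 9 in wild type.

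The 19 Wnt genes together summed to 170 ± 6.52 FPKM in YAP5SA and 108 ± 8.28 FPKM in wild type (SD, n = 4 each). The canonical members summed to 70.0, 66.8, 59.0 and 52.0 FPKM in YAP5SA, against 31.9, 30.7, 36.1 and 24.0 FPKM in wild type. Most of the canonical level in wild type was Wnt2b. Without it the canonical sum was 39.9 ± 11.8 FPKM in YAP5SA and 8.63 ± 3.36 FPKM in wild type, a ratio of 4.62. The noncanonical members summed to 93.0, 96.6, 100.4 and 98.7 FPKM in YAP5SA, against 59.0, 61.8, 66.8 and 64.1 FPKM in wild type. Without Wnt5a, their most abundant member, the noncanonical sum was 61.0 ± 2.51 FPKM in YAP5SA and 33.6 ± 1.67 FPKM in wild type, a ratio of 1.82. With all members counted, canonical sums were 2.02 times and noncanonical sums 1.54 times those of wild type, and in both classes the genotypes did not overlap. The canonical share of the 10 ligands was 38.8 ± 3.78% in YAP5SA and 32.6 ± 3.74% in wild type, and here the libraries of the genotypes overlapped. Of 6 canonical members 4 were past the threshold and of 4 noncanonical members 3, all higher, against 9.06% of all loci higher. Of these canonical ligands, Wnt7a and Wnt3 met the filter on low counts only through their YAP5SA libraries.

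**Figure D3:**
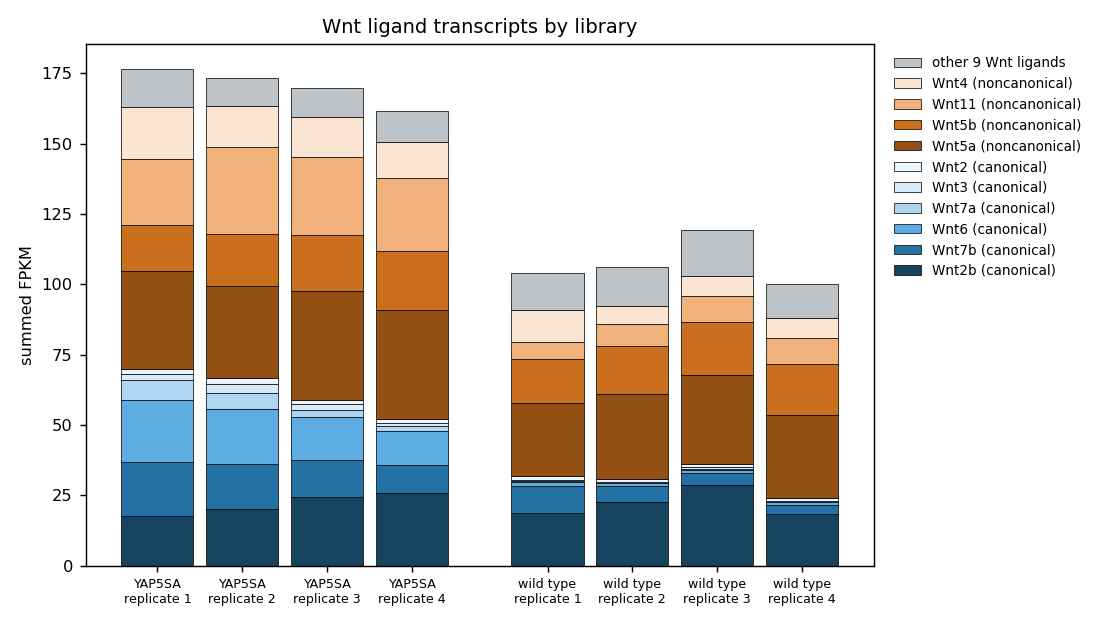
Summed FPKM of Wnt ligand genes in each library, YAP5SA left of wild type, with canonical members in blues, noncanonical members in browns and the other ligands in grey. The added height in YAP5SA comes mainly from the Wnt11, Wnt6, Wnt7b, Wnt4 and Wnt5a segments. Wnt2b averages 22.1 in YAP5SA and 22.0 in wild type.

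As a share of the Wnt ligand FPKM, Wnt6 took 10.04 ± 2.2% in YAP5SA and 1.11 ± 0.23% in wild type, and Wnt11 took 15.9 ± 1.90% in YAP5SA and 7.41 ± 1.41% in wild type. Shares moved the other way for Wnt5a, with 21.3 ± 2.54% in YAP5SA and 27.4 ± 2.09% in wild type, although its own level was higher. Wnt2b took 13.0 ± 2.70% in YAP5SA and 20.4 ± 2.76% in wild type. Since shares of a whole must sum to the whole, these falls describe the mixture and not a lower level of the gene.

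Within a genotype the ligands did not vary alike. In YAP5SA, replicate 4 was the lowest library for 6 of the 10 ligands (Wnt2, Wnt3, Wnt4, Wnt6, Wnt7a and Wnt7b) and the highest for Wnt2b, Wnt5a and Wnt5b. Replicate 1 was the highest for Wnt4, Wnt6, Wnt7a and Wnt7b and the lowest for Wnt2b, Wnt5b and Wnt11. In wild type, replicate 1 was the highest for Wnt2, Wnt4, Wnt6, Wnt7a and Wnt7b and the lowest for Wnt2b, Wnt5a, Wnt5b and Wnt11. Over all tested loci, libraries of equal number also deviated together from their genotype means (correlations 0.14 to 0.22). What such libraries share is not given. Relative spread over the YAP5SA libraries was 60.2% of the mean for Wnt7a and 42.6% for Wnt3, but 10.4% for Wnt5a and 10.6% for Wnt5b.

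**Figure D4:**
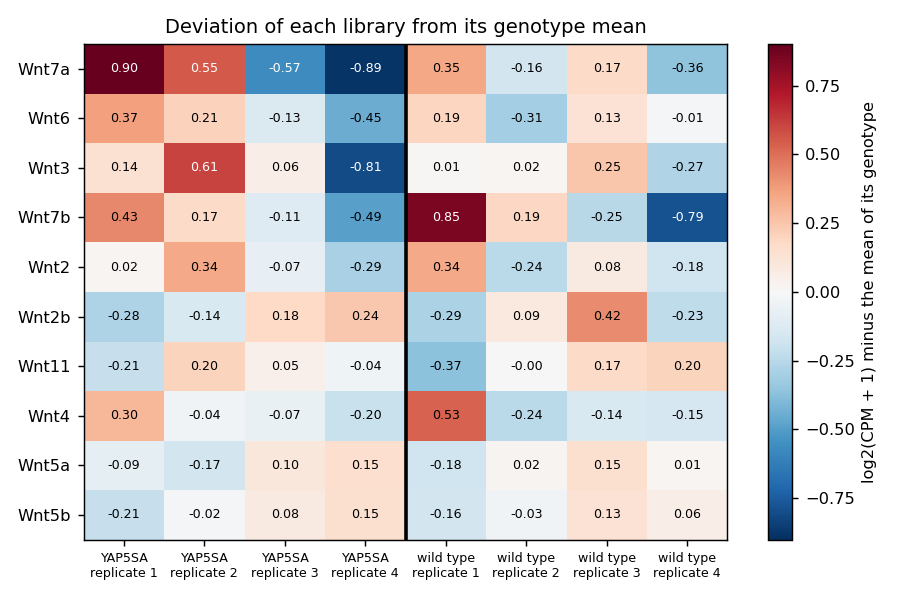
Deviation of log2(CPM + 1) of each ligand in each library from the mean of its genotype, with YAP5SA libraries left of wild type libraries. Wnt7a, Wnt6, Wnt7b and Wnt4 are positive in replicate 1 of each genotype, where Wnt2b, Wnt5a, Wnt5b and Wnt11 are negative.

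Markers of the epithelium were lower in YAP5SA. Counts of marker calls, here and in the next paragraph, stand against 18.9% of all loci tested, 9.06% higher and 9.85% lower. Of 12 epithelial markers, among them Epcam, Cdh1 and Shh, 12 were tested, 12 fell and 0 rose (median log2 fold change −1.01). Their summed level was 557.5 to 798 CPM in YAP5SA and 1041 to 1261 CPM in wild type, and no marker was at 0. Krt5, a keratin of basal squamous cells as in the forestomach, was added after its values were seen. It was at 25.8, 16.1, 11.6 and 5.09 CPM in YAP5SA and 88.4, 36.8, 49.2 and 41.5 CPM in wild type. Replicate 1 was the highest in each genotype, as for Wnt7b, but Krt5 was lower in YAP5SA and Wnt7b higher. A link between Krt5 and Wnt7b was not tested. Of 7 mesothelial markers tested, 3 fell (Krt19, Upk3b and Rspo1) and 0 rose. For Upk3b and Rspo1 the libraries of the genotypes overlapped. The other 4, among them Wt1, were not past the threshold. Summed levels were 388 to 446 CPM in YAP5SA and 432 to 618.5 CPM in wild type. These ranges overlapped, and no tested marker was at 0. Of 10 stomach mesenchyme markers, 3 fell (Foxf1a, Foxf2 and Col3a1) and 0 rose. Their summed level was 2165 to 2500 CPM in YAP5SA and 2634 to 2722 CPM in wild type. Foxf2, a forkhead factor of gut mesenchyme, was at 32.9 ± 3.59 CPM in YAP5SA and 59.2 ± 13.1 CPM in wild type, and Col3a1, a fibrillar collagen, at 541 ± 25.9 CPM in YAP5SA and 630 ± 12.4 CPM in wild type.

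Markers of some further cell types also differed between the genotypes. Of 8 smooth muscle markers, 5 fell and 0 rose, with summed levels of 716 to 986 CPM in YAP5SA and 1451 to 1549 CPM in wild type. Of 8 markers of enteric neurons and glia, 6 fell and 0 rose, with summed levels of 257.5 to 353 CPM in YAP5SA and 528 to 590.4 CPM in wild type. Among macrophage markers Csf1r, Ptprc and Cx3cr1, genes of macrophages and other leukocytes, rose. Csf1r was at 123 ± 11.7 CPM in YAP5SA and 80.3 ± 13.7 CPM in wild type, and Cx3cr1 at 101 ± 13.2 CPM in YAP5SA and 52.6 ± 5.91 CPM in wild type. Cd68, also of macrophages, was not past the threshold. Of 6 endothelial markers 1 rose (Kdr, a VEGF receptor) and 0 fell, a share of 16.7%, near that of all loci. Their summed level was 630.5 to 721 CPM in YAP5SA and 545 to 652 CPM in wild type, and these ranges overlapped. In these lists too, no tested marker was at 0 in any library. The part of all these cell types in the ligand levels was not tested.

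By distance between profiles over the 8 libraries, among 14134 loci of at least 2 CPM on average, the loci nearest to Wnt7a were Foxd1, a forkhead transcription factor gene, and Wnt6. The root mean square distances were 0.31 and 0.35 on the log2(CPM + 1) scale. Such a distance includes the difference between the genotypes, by which Wnt7a was picked, so these neighbours are only a description. Foxd1 was at 15.6, 12.1, 8.62 and 7.64 CPM in YAP5SA and 0.476, 0, 0.15 and 0.158 CPM in wild type. Nearest to Wnt5a, the most abundant ligand, were Hivep1, which encodes a zinc finger protein, and Rps6ka2, which encodes a ribosomal S6 kinase, each at a distance of 0.05. No ligand past the threshold fell, so no neighbours of a fall were sought.

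Other genes of the pathway were read from lists ordered by role. Counts of calls stand against 18.9% of all loci tested, 9.06% higher and 9.85% lower. The share past the threshold was 50% for lipidation, release and inactivation, 60.0% for Frizzled receptors, 25.0% for coreceptors, 38.5% for antagonists and 62.5% for R-spondins and their receptors. It was 0% for intracellular genes of the beta-catenin arm, 53.3% for beta-catenin targets and 50% for planar polarity genes. No list was tested against the rest. Of 8 tested genes of lipidation, release and inactivation, 3 rose and 1 fell. Porcn, the acyltransferase that every lipid-modified Wnt needs, fell by 0.57 ± 0.12 on the log2 scale, to 14.6 ± 1.61 CPM in YAP5SA against 21.7 ± 1.82 CPM in wild type. Wls, the carrier of lipid-modified Wnts, rose by 0.27 ± 0.05, at 172 ± 10.1 CPM in YAP5SA and 142 ± 4.30 CPM in wild type. The cargo adaptor gene Tmed5 and the glypican gene Gpc4 rose by 0.39 ± 0.08 and 0.31 ± 0.07. Notum, which encodes an enzyme that strips the lipid from Wnts, was at 39.6 ± 10.4 CPM in YAP5SA and 28.1 ± 5.89 CPM in wild type and was not past the threshold (edgeR adjusted p = 0.10).

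Of the 10 Frizzled receptors, 3 rose and 3 fell. Fzd6, Fzd7 and Fzd1 rose by 0.57 ± 0.10, 0.31 ± 0.07 and 0.26 ± 0.06, while Fzd5, a receptor of gut epithelium, fell by 0.97 ± 0.20 and Fzd8 and Fzd4 fell by 0.36 ± 0.07 and 0.34 ± 0.08. Of 8 coreceptors tested, 2 rose and 0 fell, a share near that of all loci. These were the noncanonical receptors Ror1 (0.53 ± 0.13) and Ryk (0.17 ± 0.05). Ror1 lost its call without YAP5SA replicate 3 (0.47), YAP5SA replicate 4 (0.50) or wild type replicate 4 (0.50). Ryk lost it without YAP5SA replicate 3 (0.16) or wild type replicate 1 (0.17), 3 (0.17) or 4 (0.16). The coreceptor genes Reck and Gpr124, which serve Wnt7a and Wnt7b in brain vessels of mice, were not past the threshold (log2 fold changes 0.13 ± 0.06 and 0.05 ± 0.06).

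Of 13 tested Wnt antagonists, 3 rose and 2 fell. Wif1, which binds Wnts outside the cell, was at 20.1 ± 4.91 CPM in YAP5SA and 1.62 ± 0.98 CPM in wild type, Sostdc1 rose by 1.43 ± 0.19 and Dkk2 by 1.21 ± 0.15, while Dkk3 fell by 0.66 ± 0.08. Frzb, a decoy receptor, fell by 1.10 ± 0.29 but lost its call without YAP5SA replicate 1 (−0.95), 2 (−1.03) or 4 (−1.02) or wild type replicate 2 (−0.92) or 3 (−1.07). Among 8 tested R-spondins, which amplify Wnt signals, and their receptors, 1 rose and 4 fell. Rspo3 was at 72.3 ± 4.33 CPM in YAP5SA and 49.8 ± 6.83 CPM in wild type, whereas Rspo2 was at 6.95 ± 1.57 CPM in YAP5SA and 26.1 ± 2.47 CPM in wild type. Rnf43 fell by 0.69 ± 0.14, Rspo1 by 0.51 ± 0.15 and Lgr4 by 0.30 ± 0.07. Rspo1 lost its call without YAP5SA replicate 1 (−0.45), 2 (−0.40) or 3 (−0.51) or wild type replicate 2 (−0.49) or 3 (−0.40).

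Inside the cell, 0 of 14 genes of the beta-catenin arm, such as Dvl1 to Dvl3, Gsk3b and Ctnnb1, were past the threshold. For Ctnnb1 and Axin1, however, every YAP5SA library lay below every wild type library, as for 12.4% of all loci. Ctnnb1 was at 366 ± 21.8 CPM in YAP5SA and 411 ± 8.56 CPM in wild type. Axin1 was at 126 ± 4.55 CPM in YAP5SA and 134 ± 1.66 CPM in wild type. Of 15 tested beta-catenin target genes 7 rose and 1 fell, with a median log2 fold change of 0.28. Tcf7 was at 63.7 ± 1.44 CPM in YAP5SA and 38.1 ± 1.94 CPM in wild type. Axin2, the feedback target, was at 109 ± 7.18 CPM in YAP5SA and 73.2 ± 6.25 CPM in wild type, Tnfrsf19 at 178 ± 14.8 and Lef1 at 34.2 ± 6.20 CPM in YAP5SA, against 105 ± 17.2 and 10.4 ± 4.01 CPM in wild type. Myc, also among the 7, rose by 0.26 but lost its call without YAP5SA replicate 3 (0.25) or wild type replicate 4 (0.22). Rnf43, counted above, was the target that fell. Of 12 planar polarity genes, 2 rose and 4 fell. The cadherin genes Celsr3 and Celsr2 fell by 0.95 ± 0.22 and 0.64 ± 0.12 and Celsr1 by 0.38 ± 0.12, the last without a call in 11 of 16 alternative settings. Dact1 fell by 0.23 ± 0.05, without a call when YAP5SA replicate 2 (−0.21) or wild type replicate 2 (−0.20) was left out. Prickle1 rose by 0.32 ± 0.08 and Prickle2 by 0.30 ± 0.08, the last without a call when YAP5SA replicate 3 was left out (0.28) or on deposited FPKM (0.12 and 0.11).

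**Figure D5:**
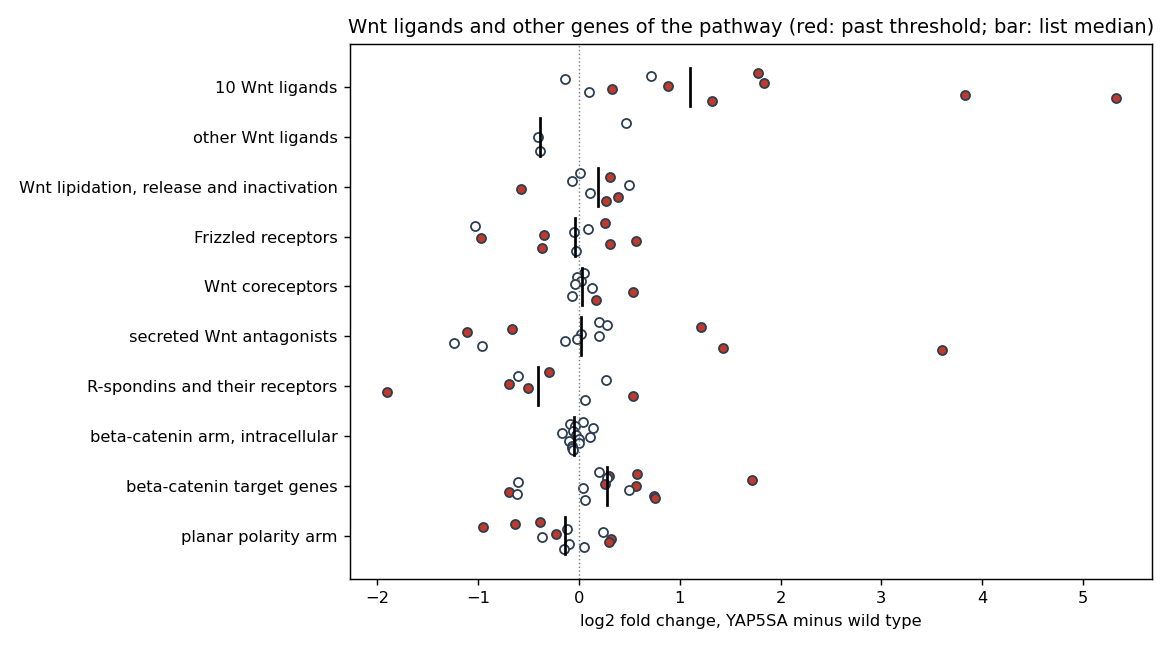
Log2 fold change (YAP5SA minus wild type) of the 10 ligands and of each list of other pathway genes, 1 point per tested gene, red where past the threshold, with the list median as a bar. The ligands reach 5.33 and the antagonists 3.61, while the 14 intracellular genes of the beta-catenin arm sit near 0.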

How the data were processed

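Total RNA of frozen stomachs was extracted with Trizol and prepared with the TruSeq RNA kit from Illumina, per the labels' protocols. TopHat2 2.0.9, Cufflinks 2.2.1 and Cuffdiff on mouse build mm10 are named, without roles, in the submitters' processing notes; use of strand and treatment of duplicates are not given in the sources used here. The deposited per-library table holds estimated counts of fragments, of which 10.6% to 11.0% per library were not whole, and FPKM scaled between libraries by the authors; a deposited group FPKM equalled the library mean within 0.01. Rows give the genotype and a number from 0 to 3, called replicates 1 to 4 here. No label ties this number to the one in the titles or says what libraries of equal number share.

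Estimated counts were rounded. The 3582 loci without a gene name (1.85% to 1.97% of fragments) were left out. Counts of 14574 loci that passed filterByExpr (minimum 10, total 15) entered the robust quasi-likelihood test of edgeR 4.0.16 (R 4.3.3) with TMM factors, genotype being the only term; the step was tested on simulated data. CPM are TMM-scaled, and values are mean ± SD of 4 libraries. Where a name had several loci the one with most fragments was used, and a joined locus where a gene had no other. P-values rest on the spread among these libraries, which may be technical. No pair of libraries of a genotype agreed within counting error (chi-square per degree of freedom 2.31 to 7.28). Libraries of equal number deviated together from their genotype means (correlations 0.14 to 0.22 in 4 of 4 pairs). Pairs of unequal number gave −0.25 to 0.10. The main fit does not use the number, so a fit with it as a block was an alternative. The others were RLE and upper-quartile factors, DESeq2 1.42.0, limma 3.58.1 (voom, and log2 FPKM with pseudocounts of 0.1 and 1), no filter and each library left out.

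The ligands, classes and pathway lists were chosen with earlier results of these data known. Named were all 10 ligands, from each list up to 4 called genes, lowest p first, members that counts of 5 or fewer need, and the 2 nearest profiles of the ligand with the largest rise and of the most abundant one; a few others were named after their values were seen. Promoter sequences are from RefSeq on GRCm38.p6. One gene of the marker lists is not reported here.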

Additional observations from a re-analysis of the deposited data

Results flagged for a closer look

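Wnt4 in wild type replicate 1 stood at 43.0 CPM, apart from the other wild type libraries at 24.8, 26.6 and 26.5 CPM. Its gap to the nearest library was 0.90 of the range of the group, above Dixon's 95% critical value for 4 libraries. Among the 20 sets of 4 libraries examined (10 ligands in each genotype) this was the only such case, and chance gives about 1 in 20.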

How the results depend on the processing

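Across 16 alternative settings, 7 ligands were past the threshold in each except without YAP5SA replicate 3, where Wnt5a lost its call and 6 remained. The replicate block gave 7 ligands, 37 pathway genes (35 in the fit without it) and 3036 loci (2757), and changed no call of a ligand. Over the settings 2032 to 3036 loci and 29 to 39 pathway genes were past the threshold. Of the 35 pathway genes, 27 kept their call in all 16 settings; Ror1, Ryk, Frzb, Rspo1, Myc, Celsr1, Prickle2 and Dact1 did not. Wnt2b, which was not past the threshold, reversed to 0.0090 and 0.0085 on log2 FPKM with pseudocounts of 0.1 and 1; leaving out single libraries gave −0.23 (without wild type replicate 1) to 0.027 (without wild type replicate 3), and the cause was not tested. A pseudocount of 1 on FPKM gave 2.13 for Wnt7a and 0.94 for Wnt3, since it compresses low levels. The difference in summed FPKM, YAP5SA minus wild type, was 31.3 for canonical and 34.2 for noncanonical ligands. The noncanonical one was 27.9 in TPM, 27.3 with Wnt4 counted as canonical and 38.5 with Wnt7a counted as noncanonical, the last changes following from which ligands are summed; the canonical one ranged from 25.0 to 38.2. Fragment numbers limit Wnt7a, Wnt3 and Wnt2, with 8, 46 and 51 fragments over the wild type libraries.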
